A study of Caenorhabditis elegans with 95 samples.

Results

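The genes described here encode the proteins of mitochondrial oxidative phosphorylation in *Caenorhabditis elegans*, that is, the respiratory chain (complexes I to IV), cytochrome c, factors that assemble cytochrome c oxidase, and the ATP synthase. They were chosen by name, as all probe sets with 1 gene symbol of the classes *nuo*, *gas*, *sdha*, *sdhb*, *sdhd*, *mev*, *cyc*, *isp*, *ucr*, *cox*, *atp*, *asb* and *asg*. The rule found 56 probe sets for 41 genes, out of 22548 probe sets on the array, and it used no measured value. Of the genes, 28 have 1 probe set, 11 have 2 and 2 have 3. By role, 9 probe sets belong to complex I, 7 to complex II, 9 to complex III, 2 to cytochrome c, 10 to structural subunits of complex IV, 6 to oxidase assembly and 13 to the ATP synthase. The symbols are those of the array's annotation, and all 56 probe sets keep the same symbol in RefSeq. No gene of the mitochondrial genome is on the list. Among probe sets with 1 symbol, none was found under its gene names *nduo*, *ctc* and *ctb-1*. The 887 probe sets with several symbols and the 895 with none were not searched.

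The study asked which worm transcripts follow daily light and temperature cycles and keep cycling without them. Whole wild-type N2 adults were grown on HB101 bacteria with FUDR from the L4 stage, which blocks DNA synthesis and the development of progeny, and RNA was taken every 4 h for microarrays. LD animals lived in a light-dark cycle at 18°C (18 arrays, series 3, 4 and 6), and DD animals were the following day of constant darkness (18 arrays, series 2, 4 and 6). WC animals lived in darkness in a cycle of 25°C and 15°C (30 arrays, series 1, 2, 3, 4 and 6), CC animals were the following day at constant 15°C (18 arrays, series 3, 4 and 6), and control animals were kept in darkness without entrainment (11 arrays, series 4 and 6). Hours 2, 6 and 10 are the light or warm phase, and hours 14, 18 and 22 the dark or cold phase. DD and CC arrays were taken 24 h later, at hours 26 to 46. The study's methods describe populations under opposing cycles in different incubators, so early and late hours may come from different populations, and the labels do not say which.

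The respiratory chain passes electrons from NADH (complex I) and succinate (complex II) through complex III and cytochrome c to oxygen at complex IV, and pumps protons out of the mitochondrial matrix. The ATP synthase lets the protons back and makes ATP. In *C. elegans*, mutants of this machinery, such as *gas-1*, *nuo-6*, *isp-1* and *mev-1*, are known for altered lifespan or sensitivity to oxygen, and muscle, intestine and germ line all hold many mitochondria.

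Every value below is a score. The deposited scores are log2 expression relative to the mean of a time series, with each array then set to mean 0 and variance 1, so that a score of 1 is 1 SD of that array. In WC series 2 the scores do not show this centring among its 6 arrays, and the members' medians on them lay between -0.09 and 0.37. Scores hold no expression level and no fold change, and levels of different genes cannot be compared. A difference is given with its standard error (SE) and an adjusted p from limma over all probe sets tested, and was called when the adjusted p was under 0.05. The array floor is the score at which the scores of an array are densest. Undetected and steady probe sets both keep to it, so it gives no detection call. A probe set lay off the floor, and was tested, where its scores strayed from it in either direction by a quadratic mean over 0.1. Of the 56 members, 56 lay off the floor in WC, 55 in CC, 53 in LD and 52 in both DD and controls. In a comparison of conditions, passing in 1 of them was enough. The 3 hours of a phase in a series enter as separate arrays, so p-values measure only the spread between these arrays. Comparisons with an arm in common share its arrays. Those left out were 1 of the probe sets of *cox-5A*, *cox-10* and *cyc-2.2* in LD, these and 1 *cox-6A* probe set in DD and controls, and *cox-10* in CC. As whole animals were used, fewer cells of a type and less RNA per cell cannot be told apart.

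Most pairs of members were positively correlated. Across all 95 arrays, the median Pearson correlation between probe sets of different member genes was 0.31 over 1523 pairs, and 84.4% of pairs were above 0. It was 0.53 within complex III, 0.48 within complex IV, 0.47 within complex II, 0.41 within the ATP synthase, 0.31 within complex I and 0.15 among assembly factors. These are descriptions over arrays that share series and days, and the same was not computed over all probe sets. Probe sets of 1 gene correlated more closely in most cases, with r = 0.90 for *sdhb-1*, 0.89 for *ucr-2.2*, 0.87 for *asg-1* and 0.79 for *gas-1*. The lowest were *cox-5A* at 0.33, of which 1 probe set lies on the floor in LD, and *sdha-1* at 0.49.

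**Figure D1:**
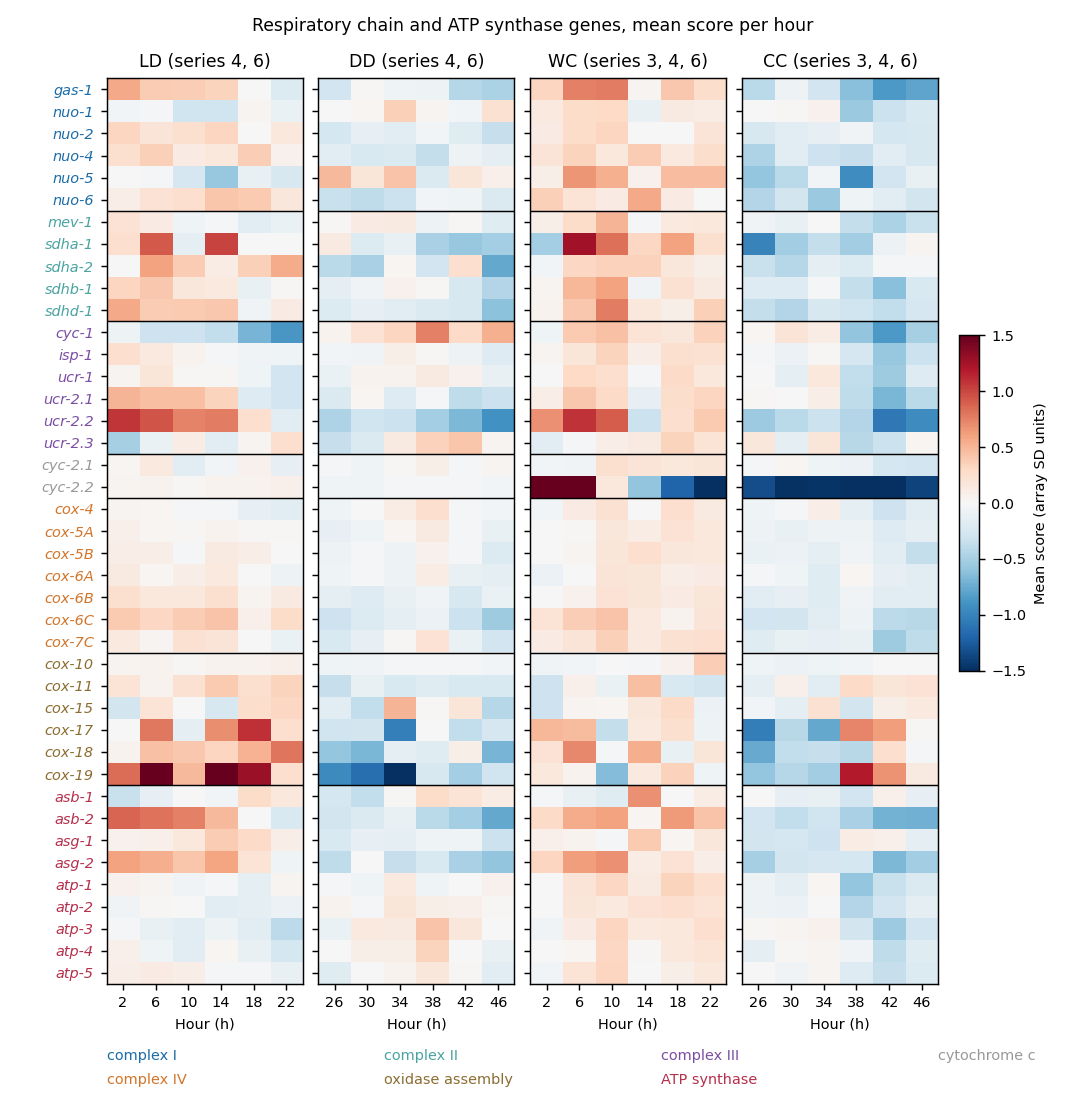
Mean score (array SD units) of each of the 41 genes, averaged over its probe sets and over series, at each hour of LD and DD (series 4 and 6) and of WC and CC (series 3, 4 and 6). Genes are grouped and coloured by role, and colours stop at a score of 1.5 on either side. WC columns are mostly red and CC columns from hour 38 on mostly blue, where *cox-17* and *cox-19* are red at hours 38 and 42.

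Animals in the temperature cycle and animals a day later at constant 15°C were compared at the same hours of the day, within series 3, 4 and 6. In the late hours both groups were at 15°C, and in the early hours WC animals were at 25°C. The largest share of members was called here. In the late hours 31 of the 56 probe sets (55.4%, 25 of 41 genes) were called, all of them higher in WC, against 13.3% of all 17646 probe sets tested (7.48% higher and 5.79% lower). The median difference of the members was 0.42, against 0.03 over all probe sets. The median score of the members on each array averaged 0.23, 0.07 and 0.17 in WC of series 3, 4 and 6, against -0.20, -0.37 and -0.24 in CC, which are differences of 0.44, 0.43 and 0.40. The difference was positive in 3 of 3 series. Without series 6, 10 of 56 members were called, all of them among the 31, against 2.86% of all probe sets, with a median difference of 0.46. Without series 3 it was 22 (9.19% of all) and without series 4 it was 24 (11.7% of all). Day, age and time since the last warm phase change together between WC and CC and cannot be told apart.

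**Figure D2:**
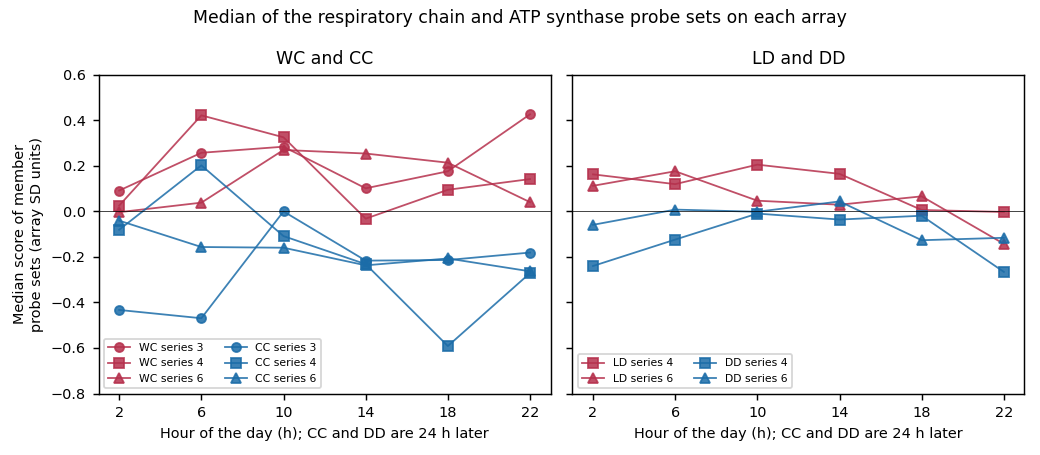
Median score of the member probe sets on each array (array SD units) against the hour of the day, left for WC (red) and CC (blue) in series 3, 4 and 6, right for LD (red) and DD (blue) in series 4 and 6. At hours 14, 18 and 22 all 9 WC arrays lie above all 9 CC arrays, while LD and DD arrays lie closer together.

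Complex I receives electrons from NADH. Its subunit gene *gas-1* had the lowest p of all members. Probe set 193887_s_at had -0.25, 0.36 and 0.78 (lowest, median and highest of 9 arrays) in the late hours of WC, against -1.24, -0.79 and -0.42 in CC, a difference of 1.08 (SE 0.18, adjusted p = 0.000101). The other *gas-1* probe set differed by 0.92 (SE 0.17, adjusted p = 0.000463), and for both the groups did not overlap. Non-overlapping groups were found for 6 of the 56 member probe sets and for 0.980% of all. Both *nuo-4* probe sets (0.52 and 0.50, SE 0.11 and 0.13) and *nuo-1* (0.41, SE 0.14) were also called. The others were not, with *nuo-5* at 0.85 and 0.70 (SE 0.31 and 0.24, adjusted p = 0.0693 and 0.0522), *nuo-6* at 0.39 (SE 0.18, adjusted p = 0.160) and *nuo-2* at 0.25 (SE 0.09, adjusted p = 0.0580). Without series 6 both *gas-1* probe sets and 171850_x_at of *nuo-4* were still called, and the other *nuo-4* probe set (adjusted p = 0.179) and *nuo-1* (adjusted p = 0.0660) were not, and *nuo-1* was not called without series 3 or 4 either.

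In complex II, succinate dehydrogenase, 2 of 7 probe sets were called. The gene *mev-1*, for the membrane subunit that holds cytochrome b, had -0.34, 0.05 and 0.37 in WC, against -0.85, -0.38 and -0.16 in CC (difference 0.49, SE 0.14, adjusted p = 0.0136). One *sdhb-1* probe set, for the iron-sulfur subunit, differed by 0.53 (SE 0.17, adjusted p = 0.0399), and the other by 0.49 (SE 0.18, adjusted p = 0.0744). The flavoprotein gene *sdha-1* spread widely, with 3.28 as the highest WC score of probe set 193475_s_at, and its probe sets differed by 1.18 (SE 0.51) and -0.03 (SE 0.41), neither of them called. Without series 6 no complex II call was left (*mev-1* 0.46, adjusted p = 0.229, and *sdhb-1* 0.55, adjusted p = 0.267), nor without series 3 (adjusted p = 0.0627 and 0.146), and without series 4 *sdhb-1* was lost (adjusted p = 0.0587).

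Complex III hands electrons on to cytochrome c, and 8 of its 9 probe sets were called. The Rieske iron-sulfur protein gene *isp-1* (192399_s_at) had -0.08, 0.20 and 0.61 in WC, against -1.01, -0.37 and -0.19 in CC, with no overlap (difference 0.67, SE 0.13, adjusted p = 0.000497). The cytochrome c1 gene *cyc-1* (191292_s_at) had -0.42, 0.15 and 0.89 in WC, against -1.18, -0.70 and -0.11 in CC (difference 0.96, SE 0.22, adjusted p = 0.00280). The core protein gene *ucr-2.2* (193874_at) differed by 1.02 (SE 0.22), *ucr-2.1* by 0.65 (SE 0.16) and *ucr-1* by 0.51 (SE 0.13). The third copy, *ucr-2.3*, was not called (0.46, SE 0.18, adjusted p = 0.0850). Of the cytochrome c genes, *cyc-2.1* was called (0.39, SE 0.09, adjusted p = 0.00415) and *cyc-2.2* was not (0.37, SE 0.91). Without series 6 only 1 of 9 complex III probe sets was called, *isp-1* 192399_s_at (0.72, adjusted p = 0.0369). The 7 others, both probe sets of *cyc-1* and of *ucr-2.2* among them, were then at 0.49 to 1.01 (adjusted p of 0.0947 to 0.234), and *cyc-2.1* was at 0.35 (adjusted p = 0.171). Without series 3, *ucr-2.1* was lost (0.53, adjusted p = 0.0656).

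In complex IV, cytochrome c oxidase, 8 of 10 probe sets were called, with smaller differences, from 0.20 for *cox-6A* to 0.55 for *cox-7C*. The *cox-7C* scores were 0.06, 0.19 and 0.47 in WC, against -0.93, -0.34 and -0.08 in CC (SE 0.09, adjusted p = 0.000158). The *cox-5A* probe set 184498_at had 0.07, 0.19 and 0.47 in WC, against -0.50, -0.24 and -0.03 in CC (difference 0.48, SE 0.09, adjusted p = 0.000314). Neither gene's groups overlapped. The gene *cox-5B* differed by 0.38 (SE 0.07, adjusted p = 0.000418). None of the 6 assembly factor probe sets was called. Their differences lay between -0.52 (*cox-19*, SE 0.30) and 0.27 (*cox-18*, SE 0.30), with a median of -0.05. Without series 6, *cox-5A*, *cox-5B* and *cox-7C* were still called, and the 5 other complex IV calls were lost.

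In the ATP synthase, 7 of 13 probe sets were called. The peripheral stalk subunit b gene *asb-2* had -0.52, 0.46 and 0.71 in WC, against -1.18, -0.63 and -0.18 in CC (difference 1.00, SE 0.19, adjusted p = 0.000495). The alpha subunit gene *atp-1* had 0.07, 0.18 and 0.48 in WC, against -0.64, -0.49 and 0.06 in CC, without overlap (difference 0.61, SE 0.12, adjusted p = 0.000823). The catalytic beta subunit gene *atp-2* (0.52, SE 0.11), *atp-3* (0.55, SE 0.12) and *asg-2* (0.63, SE 0.13) were also called. The paralogs *asb-1* (0.38, SE 0.16, adjusted p = 0.105) and *asg-1* (0.24 and 0.13, SE 0.12 and 0.11) were not. Without series 6, *atp-1*, *atp-2* and *atp-3* were still called, and *asb-2* (0.86, adjusted p = 0.0863), *asg-2* (0.59, adjusted p = 0.0767), *atp-4* and *atp-5* were not.

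**Figure D3:**
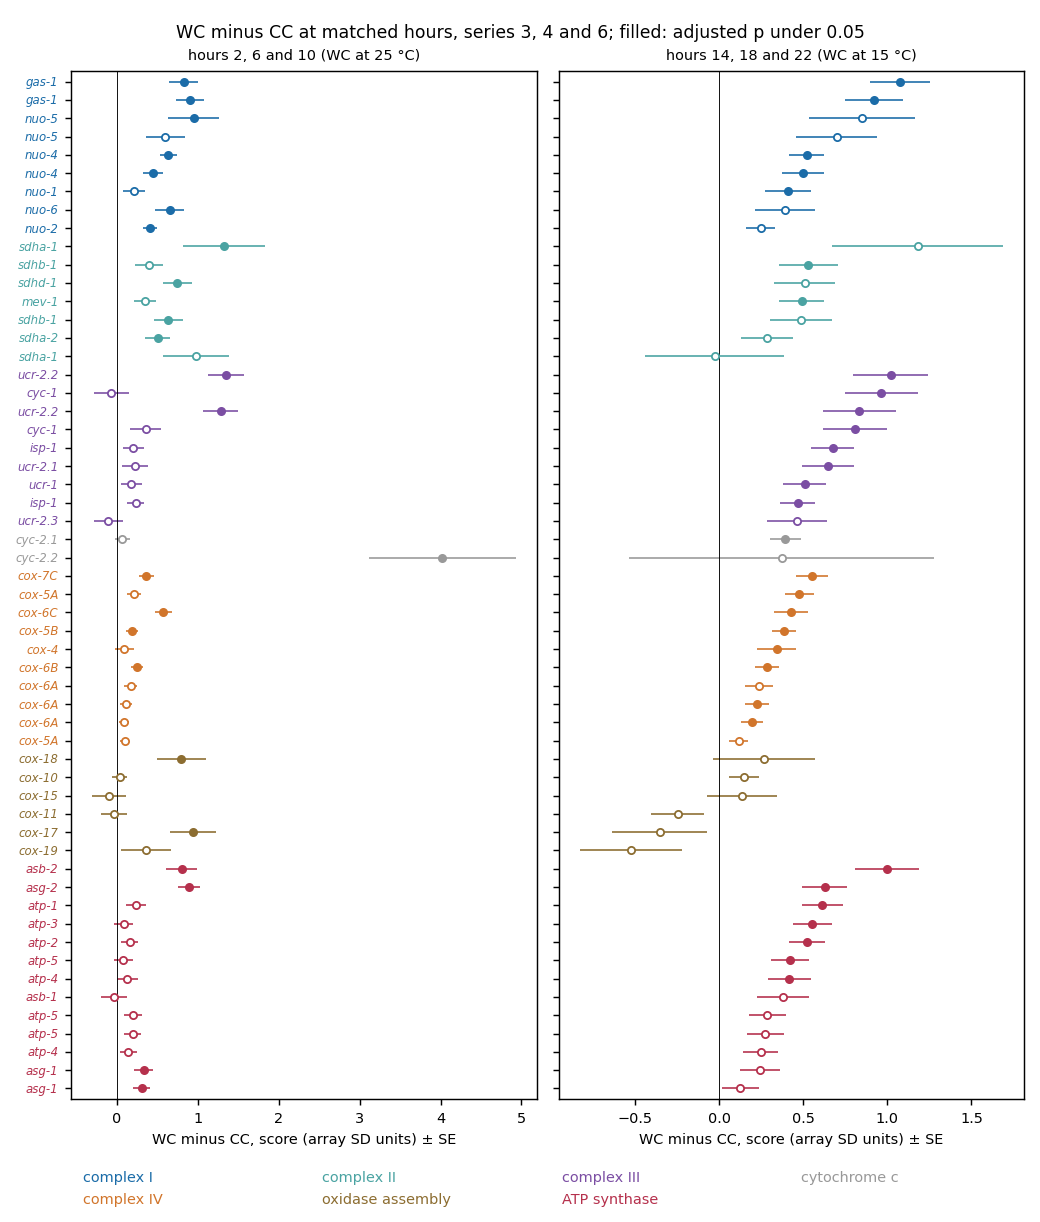
WC minus CC difference in score (array SD units) with its SE for each of the 56 member probe sets, in the early hours (left) and the late hours (right) of series 3, 4 and 6, coloured by role and filled where the adjusted p was under 0.05. The 2 panels have different horizontal scales, since *cyc-2.2* reaches 4.02 in the early hours. Most points lie to the right of 0 in both panels, and *cox-11*, *cox-17* and *cox-19* lie to its left in the late hours.

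In the early hours, with WC at 25°C, 24 of the 56 members (42.9%, 20 of 41 genes) were called, again all higher in WC, against 28.6% of all probe sets (15.6% lower, the rest higher). In complex I, 7 of 9 probe sets were called, led by *nuo-4* (171850_x_at), with 0.07, 0.22 and 0.58 in WC and -0.66, -0.39 and -0.05 in CC (difference 0.64, SE 0.11, adjusted p = 2.97e-05), whose groups did not overlap. In complex II, 4 of 7 were called, among them *sdhd-1* (0.75, SE 0.18). In complex III only the 2 *ucr-2.2* probe sets were called (1.35 and 1.28, SE 0.22 each), while *isp-1*, *ucr-1*, *ucr-2.1* and *cyc-1* were not. In complex IV, *cox-6C* had 0.19, 0.37 and 0.50 in WC, against -0.66, -0.19 and 0.01 in CC (difference 0.58, SE 0.10, adjusted p = 6.29e-05). The largest ATP synthase difference was *asg-2* (0.89, SE 0.13, adjusted p = 7.01e-06), and no *atp* gene was called. Of the assembly factors, *cox-17* (0.94, SE 0.28, adjusted p = 0.0108) and *cox-18* (0.80, SE 0.30, adjusted p = 0.0449) were called, and the others were not. Only 2 members had non-overlapping groups, against 4.84% of all probe sets. Without series 6, 10 of the 24 early calls were left, against 10.8% of all probe sets, 2 of them *ucr-2.2*, 4 in complex I, 2 in complex IV, and *cyc-2.2* and *asg-2*. No complex II call was left, with *sdhd-1* at 0.78 (adjusted p = 0.0525). Without series 3 it was 16 (24.4% of all) and without series 4 it was 17 (27.9% of all, 15 of them among the 24). The early call of *asb-2* (0.80, SE 0.19) was lost without series 3 (0.62, adjusted p = 0.0580) and without series 6 (0.67, adjusted p = 0.115).

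Markers of other tissues differed in the same comparison. In the late hours, 11 of 21 muscle marker probe sets were called higher in WC, and the mean score of the list lay between -0.68 and 0.71 in WC, against -1.67 to -0.38 in CC. For sperm, 22 of 36 were called higher, with mean scores of -2.16 to 1.75 in WC and -3.34 to -0.05 in CC. Of the germline and oocyte list 3 of 16, of the intestine list 2 of 11, of the neuron list 1 of 13, of the hypodermis list 1 of 9 (and 3 lower) and of the embryo list 0 of 9 were called higher. In the early hours 13 of 21 muscle probe sets were called higher, with mean scores of -0.12 to 1.15 in WC and -1.34 to 0.84 in CC. The part of these tissues in the result was not tested.

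Other mitochondrial genes were counted in the late hours for comparison. Complex I subunits under other names had 20 of 31 probe sets called higher and none lower (median 0.42), and enzymes of the TCA cycle, which feeds complexes I and II, 14 of 29 higher (median 0.42). The mitochondrial ribosome had 1 of 64 called (median 0.03), the cytosolic ribosome 2 of 100 (median 0.09) and the vacuolar ATPase, a proton pump of other membranes, 2 of 25 (median 0.14). In the early hours the mitochondrial ribosome had 32 of 64 called higher (median 0.69).

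The light and dark phases of LD were compared within the day. Of the 53 members tested, 7 probe sets of 6 genes were called, 6 higher and 1 lower in the light, or 13.2%, against 15.8% of all 15989 probe sets (8.84% higher, the rest lower). The member median was 0.10, against -0.07 over all. The largest difference was in *asb-2*, with 0.48, 0.81 and 1.27 in the 9 arrays of the light phase, against -0.84, -0.30 and 0.79 in the dark phase (difference 0.98, SE 0.18, adjusted p = 0.0100), and it was 1.48, 0.79 and 0.67 in series 3, 4 and 6. The groups overlapped in 1 dark array, that of series 4 at hour 14. Both *ucr-2.2* probe sets were called (0.93 and 0.80, SE 0.20 and 0.23, adjusted p = 0.0132 and 0.0319). Probe set 173239_s_at had 0.48, 0.82 and 1.61 in the light and -1.03, 0.13 and 1.17 in the dark. The gene *ucr-2.1* had 0.27, 0.55 and 0.84 in the light, against -0.72, -0.34 and 0.62 in the dark (difference 0.73, SE 0.16, adjusted p = 0.0135).

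Smaller light-phase differences were called for *asg-2* (0.48, SE 0.15, adjusted p = 0.0385) and *gas-1* (0.42, SE 0.13, adjusted p = 0.0438), whose other probe set was not called (0.45, SE 0.15, adjusted p = 0.0558). The assembly factor *cox-11*, a copper protein of the inner membrane, was lower in the light, with -0.64, 0.03 and 0.43 there, against 0.19, 0.33 and 0.61 in the dark (difference -0.41, SE 0.13, adjusted p = 0.0393), most of it in series 3 (-0.92, against -0.15 and -0.18 in series 4 and 6). No member of complex II, cytochrome c or the structural subunits of complex IV was called. The LD calls rested on series 3 and 6. Without series 3, 0 members and 7 of all probe sets were called, and *asb-2* was at 0.73 (adjusted p = 0.132). Without series 6, 0 members and 2 of all probe sets were called, with *asb-2* at 1.14 (adjusted p = 0.0785). With a linear term over the hours, 0 members and 0 of all probe sets were called, with 470 of all and no member at an unadjusted p under 0.05. Over the sampled hours this term largely overlaps with the phase, and the fit separates them poorly. The loss of calls thus does not tell a phase difference from a drift over the day.

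**Figure D4:**
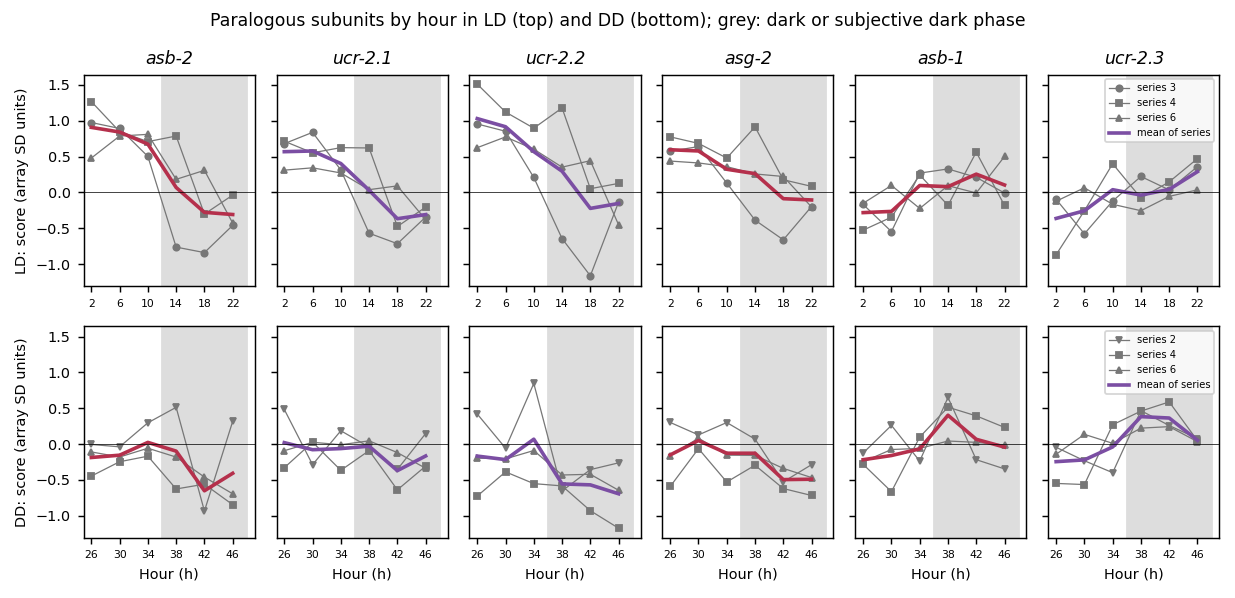
Scores (array SD units) of 6 genes by hour, LD above and DD below, with 1 grey line per series, a coloured line for the mean of the series, and a grey band over the dark or subjective dark phase. In LD, the means of *asb-2*, *ucr-2.1*, *ucr-2.2* and *asg-2* are above 0 at hours 2, 6 and 10, while *asb-1* and *ucr-2.3* have higher means in the dark.

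The genes that were higher in the light have paralogs for the same subunit. The gene *asb-1*, known as the form of subunit b used in the germ line, had -0.55, -0.17 and 0.27 in the light and -0.18, 0.09 and 0.56 in the dark (difference -0.30, SE 0.15, adjusted p = 0.177). Its difference was negative in 3 of 3 series. The gene *ucr-2.3* differed by -0.29 (SE 0.16, adjusted p = 0.204). The difference between paralogs on the same array was then taken. In LD, *asb-2* minus *asb-1* was 0.23 to 1.79 in the light, against -1.09 to 0.97 in the dark, or 1.28 higher in the light. The same measure was 1.16 for *ucr-2.2* minus *ucr-2.3*, 1.02 for *ucr-2.1* minus *ucr-2.3* and 0.53 for *asg-2* minus *asg-1*, each above 0 in 3 of 3 series, and 0.43 for the succinate dehydrogenase pair, *sdha-1* minus *sdha-2*. Pairs were picked with the LD scores in view, so these LD values are a description and were not tested.

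In the other 4 conditions the 6 pairs were tested by exact permutation of the hours within each series (two-sided, p adjusted over the 24 tests, a test added after the scores had been seen). In DD the measure was 0.94 for *ucr-2.2* minus *ucr-2.3* (adjusted p = 0.0060, exact permutation) and 0.58 for *ucr-2.1* minus *ucr-2.3* (adjusted p = 0.0440, exact permutation), higher in the subjective day in 3 of 3 series each. It did not pass for *asb-2* minus *asb-1* (0.57, adjusted p = 0.0765), *asg-2* minus *asg-1* (0.21, adjusted p = 0.268) or *sdha-1* minus *sdha-2* (0.22, adjusted p = 0.717, all by exact permutation). The difference *ucr-2.1* minus *ucr-2.2* was -0.35 in DD (adjusted p = 0.0440, exact permutation). It is the difference of the *ucr-2.3* measures above, so these DD results rest on the same genes and are not separate. The adjustment does not cover the choice of pairs, and the permutation tests were not repeated with a series left out. No paralog measure passed in WC (adjusted p of 0.360 to 0.934), in CC (0.228 to 0.801) or in controls (0.570 to 0.705) by exact permutation. The measures ran from -0.30 to 0.32 in WC. In CC they ran from -0.22 (*sdha-1* minus *sdha-2*) to 0.45 (*asg-2* minus *asg-1*). In controls they ran from -0.42 (*sdha-1* minus *sdha-2*) to 0.45 (*ucr-2.2* minus *ucr-2.3*). With 2 control series there were 200 arrangements of the hours, against 8000 in DD, so a pass was harder to reach in controls. Gene by gene, no member was called between day and night in DD, where 0.0122% of all probe sets were called and 8 of 52 members (15.4%) had an unadjusted p under 0.05, as did 15.6% of all probe sets. The lowest was that of 1 *nuo-5* probe set (difference 0.38, SE 0.10, adjusted p = 0.138). Next came *ucr-2.2* (173239_s_at), with -0.74, -0.16 and 0.86 in the subjective day, against -1.56, -0.47 and -0.26 in the subjective night (difference 0.51, SE 0.15, adjusted p = 0.152).

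Marker scores moved with these genes. In LD, 21 of 23 probe sets of the muscle list lay off the floor, and 13 of 21 were called higher in the light. The mean score of the list was between 0.06 and 1.03 in the light, against -1.19 to 0.43 in the dark. The intestine list had 6 of 8 called higher in the light, and the embryo list 6 of 8 called lower. The mean score of the intestine list had a median of 0.69 in the light and -0.16 in the dark. The medians were 0.55 and -0.11 for the hypodermis list, and 0.08 and -0.41 for the neuron list. The germline and oocyte list had 0 of 16 called, and the sperm list 1 of 33. Over the 18 LD arrays, *asb-2* correlated with the muscle mean at r = 0.85, with *ucr-2.1* at 0.97 and with *ucr-2.2* at 0.96, while *asb-1* correlated with the muscle mean at -0.66 and *ucr-2.3* at -0.40. With the germline mean r was -0.61 for *asb-2*, 0.46 for *asb-1* and 0.82 for *ucr-2.3*. Over the 30 WC arrays, r with the muscle mean was 0.63 for *asb-2*, -0.58 for *asb-1* and -0.20 for *ucr-2.3*, and with the germline mean -0.28, 0.19 and 0.84. For the same genes in this order, r over the 18 DD arrays was 0.51, -0.43 and -0.58 with muscle, and -0.09, 0.20 and 0.50 with germline. Over the 18 CC arrays it was 0.84, -0.34 and 0.61 with muscle, and 0.23, -0.02 and 0.69 with germline. Over the 11 control arrays it was 0.58, -0.26 and -0.27 with muscle, and 0.41, 0.64 and 0.52 with germline. These correlations were taken with the muscle and germline means only. They share the hours and series of the arrays, and the part of the tissues was not tested.

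Between the warm and cold phases of WC, no member was called, while 2.54% of all 17342 probe sets were. The member median was 0.02, and 1 of 56 members (1.79%) had an unadjusted p under 0.05, against 15.7% of all probe sets. Without series 2, 9.92% of all probe sets and 1 member, *asg-2* (0.34, adjusted p = 0.0348), were called, and 10 members had an unadjusted p under 0.05. Without series 3, 4 and 6 in turn, 0.634%, 0.767% and 0.415% of all probe sets were called, and no member. In this cycle *asb-2* had -0.11, 0.42 and 0.81 in the 15 warm arrays, against -0.97, 0.38 and 0.83 in the 15 cold arrays (difference 0.16, SE 0.14, adjusted p = 0.635). The difference between the WC and LD phase differences was called for 2 of the 56 members (4.17% of all probe sets), *asb-2* at -0.83 (SE 0.23, adjusted p = 0.0288) and *ucr-2.1* at -0.81 (SE 0.21, adjusted p = 0.0166). Without LD series 3, these were -0.58 (adjusted p = 0.399) and -0.60 (adjusted p = 0.328), and neither was called. The *asb-2* call was also lost without WC series 2 (-0.76, adjusted p = 0.0612), series 3 (-0.78, adjusted p = 0.0734) or series 6 (-0.85, adjusted p = 0.0552). The LD phase difference was not called as different from that in DD (0.00586% of all probe sets) or in controls (0%) for any member, with 7 of 53 (13.2%, against 10.5% of all) and 4 of 53 (7.55%, against 15.2% of all) members at an unadjusted p under 0.05. Without control series 6, 5 members (2 *ucr-2.2* probe sets, *ucr-2.1*, *asb-2* and *gas-1*) differed between LD and controls, against 7.11% of all probe sets. Without control series 4, 0 members did, against 0.390% of all probe sets. The member median of this difference was 0.34 without control series 6 and -0.16 without control series 4, against 0.13 with both. Between DD and controls the phase difference was called for 0 members and 0% of all probe sets, with no member at an unadjusted p under 0.05. Controls had no member and 0 of 16579 probe sets called between early and late hours, with 365 of these at an unadjusted p under 0.05, none of them a member.

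In CC, 0 of 55 members were called between subjective warm and cold phases, against 0.474% of all probe sets, and 17 (30.9%) had an unadjusted p under 0.05, against 17.4% of all probe sets. Those with the lowest p were *cox-17*, a copper carrier for oxidase assembly, *cyc-1* and *cox-19*, a further assembly factor. The *cox-17* scores were -1.35, -0.88 and 0.90 in the subjective warm phase, against -0.88, 0.48 and 1.25 in the subjective cold phase (difference -1.20, SE 0.29, adjusted p = 0.0729). The *cyc-1* scores (191292_s_at) ran the other way, with -0.67, 0.31 and 1.33, against -1.18, -0.70 and -0.11 (difference 0.95, SE 0.24, adjusted p = 0.0842). The *cox-19* difference was -1.18 (SE 0.34, adjusted p = 0.116). In WC, *cox-17* differed by 0.21 (SE 0.24) and *cyc-1* by -0.19 (SE 0.17) between phases. The WC minus CC difference of these phase differences was called for both, 1.41 for *cox-17* (SE 0.38, adjusted p = 0.0286) and -1.14 for *cyc-1* (SE 0.29, adjusted p = 0.0200), where 3.96% of all probe sets were called. Each call was lost without CC series 4 (1.19 with adjusted p = 0.177, and -0.78 with adjusted p = 0.203), without CC series 6 (1.36 with adjusted p = 0.188, and -1.08 with adjusted p = 0.166) and without WC series 3 (1.37 with adjusted p = 0.0664, and -1.07 with adjusted p = 0.0664). The *cox-17* call was also lost without WC series 6 (1.44, adjusted p = 0.0688) and the *cyc-1* call without WC series 1 (-1.06, adjusted p = 0.0537). Without CC series 3, 8 members were called between the phases of CC, against 5.82% of all probe sets, both *cyc-1* probe sets and *cox-17* among them. In the WC minus CC difference, 7 members were then called, against 4.71% of all. Without WC series 2 it was 5, against 8.84%, with *cox-19*, *atp-2* and *atp-3* beside *cox-17* and *cyc-1*, and without WC series 4 it was 4, against 3.70%, with *ucr-2.1* and *atp-3* added. In CC, 21 of the 23 muscle probe sets lay off the floor and 0 were called. The *cyc-1* score correlated with the muscle mean at r = 0.63 over 18 arrays, and the *cox-17* score at -0.53.

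**Figure D5:**
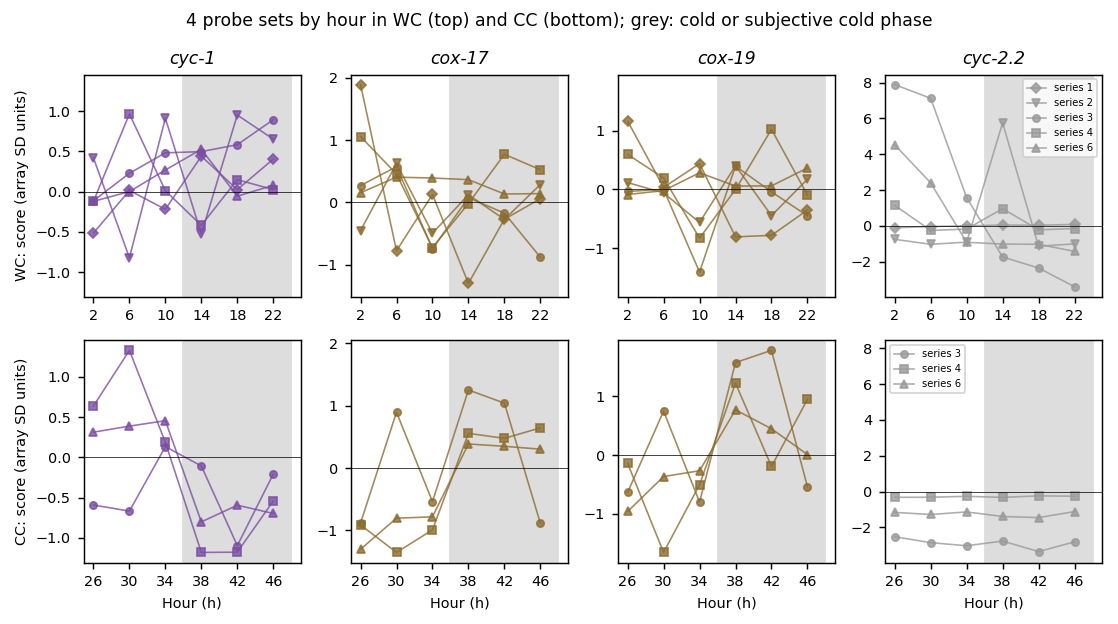
Scores (array SD units) of the probe sets 191292_s_at (*cyc-1*), 183516_at (*cox-17*), 175132_at (*cox-19*) and 189250_at (*cyc-2.2*) by hour, WC above and CC below, 1 line per series, with a grey band over the cold or subjective cold phase. In CC, *cox-17* and *cox-19* rise and *cyc-1* drops between hours 34 and 38 in 3 of 3 series, and *cyc-2.2* reaches 7.89 in 1 WC series and stays below 0 in CC.

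The cytochrome c gene *cyc-2.2* stood apart from all other members. It lay on the floor in LD, DD and controls. In WC series 3 its scores were 7.89, 7.13, 1.58, -1.74, -2.35 and -3.40 at hours 2 to 22, and in WC series 2 it reached 5.76 at hour 14. The WC scores were -0.92, 1.58 and 7.89 in the early hours of series 3, 4 and 6, against -3.02, -1.16 and -0.26 in CC (difference 4.02, SE 0.91, adjusted p = 0.00101). It was 1.87 without series 3 (adjusted p = 0.0459), 5.77 without series 4 and 4.44 without series 6. WC and CC of these series had been centred together, so high WC scores lower the CC scores. Within CC the phase difference was 0.09 (SE 0.10), and the scores cannot show whether *cyc-2.2* was detected there. It counts all the same among the 55 members off the floor in CC and among the 24 early calls. The phase difference within WC was 1.81 (SE 0.93, adjusted p = 0.355), at 8.03 in series 3 and 3.16 in series 6 and not above 0.04 in the others. Sperm markers were also higher in the early hours of WC, with 32 of 36 called and mean scores of 0.89 to 5.59 in WC, against -2.85 to -0.85 in CC, and their part in the *cyc-2.2* scores was not tested. Its paralog *cyc-2.1* was not called in these hours (0.07, SE 0.09, adjusted p = 0.612).

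The last day of LD and the first day of DD were compared at the same hours in series 4 and 6. In the early hours 22 of 53 members (41.5%) were called, 20 higher and 2 lower in LD, against 28.7% of all probe sets (16.0% higher and 12.7% lower). In the late hours 21 (39.6%) were called, 18 higher and 3 lower, against 31.6% (16.9% higher and 14.7% lower). Among the larger differences was *ucr-2.2* (173239_s_at), with 0.64, 0.96 and 1.61 in the 6 early LD arrays, against -0.74, -0.28 and -0.14 in DD (difference 1.34, SE 0.24, adjusted p = 0.000380). For *asb-2* they were 0.48, 0.80 and 1.27 in LD, against -0.45, -0.18 and -0.06 in DD (difference 1.02, SE 0.17, adjusted p = 0.000250). The assembly factor *cox-19* had the largest difference of all members, 2.25 (SE 0.46, adjusted p = 0.00122), and overlapped, with -0.71, 1.12 and 1.77 in LD and -1.92, -1.54 and 0.02 in DD. Oxidase assembly had 3 of 5 tested probe sets called higher in the early hours and 4 of 5 in the late hours, *cox-11* among them in both (0.39 and 0.53, SE 0.09 each).

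One gene of complex III went the other way. In the late hours *cyc-1* (191292_s_at) had -1.74, -0.63 and -0.36 in LD, against 0.26, 0.68 and 1.16 in DD (difference -1.53, SE 0.20, adjusted p = 1.71e-05), and its other probe set differed by -0.81 (SE 0.16, adjusted p = 0.000778). For both, the groups did not overlap. Non-overlap was found for 12 of 53 members in the early hours and for 5 in the late hours, against 20.4% and 22.0% of all probe sets. The other members lower in LD were *nuo-5* in the early hours (-0.29, SE 0.11) and *atp-3* in the late hours (-0.40, SE 0.11). Without series 6, 8 members were called in each, against 10.1% of all probe sets in the early and 11.2% in the late hours, and without series 4, 12 in each, against 24.6% and 25.5%. The calls of 173239_s_at and *asb-2* in the early hours, of *cox-19* in the early hours and of 191292_s_at in the late hours held without either series. Those of *nuo-5* and *atp-3* were lost without either (adjusted p of 0.535 and 0.0656 without series 4, 0.0719 and 0.142 without series 6). Without series 6, *cox-11* (0.0998 early, 0.0545 late) and the second *cyc-1* probe set (0.0511 late) also missed the threshold by their adjusted p. Over the same hours, 73 of 106 cytosolic ribosome probe sets were called higher in LD in the early and 102 in the late hours. The mean score of the muscle list was 0.63 to 1.03 in LD and -0.02 to 0.75 in DD in the early hours. That of the intestine list was 0.14 to 0.76 in LD and -0.36 to 0.04 in DD, and -0.22 to 0.70 against -0.84 to -0.29 in the late hours. Early medians in LD and DD were 0.68 and -1.44 for the sperm list, 0.62 and -0.27 for hypodermis and -0.08 and -0.22 for germline and oocyte. They were lower in LD for the neuron list (0.02 and 0.46) and the embryo list (-0.995 and -0.002). The part of these tissues was not tested. Day and age cannot be told apart from the loss of the light cycle.

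In the test for a 24-h cosine rhythm, no member was called in any condition, while 6.29% of all probe sets were called in WC, 1.00% in LD, 0.0121% in CC and 0% in both DD and controls. At an unadjusted p under 0.05 the members numbered 10 in LD (18.9%, against 26.3% of all probe sets), 7 in DD (13.5%, against 13.4%), 1 in WC (1.79%, against 20.5%), 12 in CC (21.8%, against 9.79%) and 0 in controls (against 2.24%). Nearest to the threshold was *asb-2* in LD, with an amplitude of 0.68 (SE 0.14), a fitted peak at hour 6.23 and an adjusted p of 0.0522. In LD, *ucr-2.1* (amplitude 0.53, peak at hour 6.37, adjusted p = 0.0574) and *ucr-2.2* (0.64, hour 6.04, adjusted p = 0.0665) followed. The fitted *ucr-2.2* peak in DD was at hour 8.49 of the day (amplitude 0.41, adjusted p = 0.211).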

How the data were processed

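Affymetrix *C. elegans* arrays of 95 samples were analysed from the deposited score table. The authors derived log2 values by GCRMA in R 2.7.1, expressed them relative to the mean of a time series and standardised each array, so the deposited values are scores. From the scores, LD and DD of series 4 and of 6, and WC and CC of series 3, 4 and 6, had been centred together, and the 6 arrays of WC series 2 showed no such centring. The 77 array controls were left out, as were, per condition, probe sets whose scores kept to the array floor (the median of the densest 5% of scores), with a quadratic mean distance under 0.1. The table holds no comparison of the authors and 1 missing score. With limma 3.58.1 in R 4.3.3, hours 2, 6 and 10 were contrasted with hours 14, 18 and 22, and conditions at matched hours, with series as a block. Adjusted p are Benjamini-Hochberg values over all probe sets tested. The 3 hours of a phase enter as separate arrays, and 5 arrays stand for 2 pooled biological replicates. The fits and the permutation test were tested on simulated data. The number of arrays limits the precision. Members named with values are those called, the leading ones of each role, paralogs, genes with several probe sets and known mutants. The members and lists were chosen with earlier results of these data known. Figures were drawn with matplotlib 3.10.9.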

Additional observations from a re-analysis of the deposited data

Results flagged for a closer look

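Of 44 groups checked for a single value far from the rest, 5 held one, where chance gives about 1 in 20. The median of the members on the CC array of series 4 at hour 42 was -0.592, against -0.271 for the nearest of the 9 late CC arrays. In the WC arrays at hour 10, the median was 0.000179 in series 1, against 0.269 for the nearest of the 5 series. Single low scores in late CC were those of *isp-1* (-1.01, nearest -0.599) and *cox-7C* (-0.927, nearest -0.412) on the same array at hour 42, and of *cox-17* (-0.884, nearest 0.303) in series 3 at hour 46. With the CC array at hour 42 left out, 28 of 56 members were called higher in WC than in CC in the late hours and the median difference was 0.42. Called differences between conditions in the phase difference were -1.14 for *cyc-1* and 1.41 for *cox-17* (WC minus CC), and -0.810 for *ucr-2.1* and -0.826 for *asb-2* (WC minus LD), by limma's moderated test of the difference.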

How the results depend on the processing

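Of the alternatives tried for the 19 counts of called members, 159 gave a count within 1.5 times the first one and 29 did not. Most of the 19 counts were 0 at first, and an alternative that also gave 0 was taken as within this range. The tally therefore says little about the counts above 0, which moved more often. For the LD phase difference (7 members), the count was 4 without the series as a block, 4 without pooled arrays, 4 with arrays at their recovered spread and 0 with a linear trend, and 0 to 6 when each series was left out. With the trend, *asg-2* was at -0.0038 and 1 *ucr-2.2* probe set at -0.0506 in LD, and the cause was not tested. In CC, 10 of 56 members were called with probe sets on the floor kept in, against 28.3% of all 22548 probe sets, and 0 to 8 when each series was left out. In WC this range was 0 to 1. For the WC minus CC phase difference, 4 members were called without the block, and 0 to 7 when each series was left out. The ranges were 0 to 5 for LD minus control and 0 to 2 for WC minus LD. At matched hours they were 8 to 12 for LD minus DD, early and late, 10 to 17 for WC minus CC in the early hours and 10 to 24 in the late hours. For WC minus CC at matched hours, only called members with the lowest adjusted p were followed singly. None of these differences changed sign, which this choice made likely beforehand. The recovered spread undoes the standardisation of arrays as far as joint centring shows it. This setting, median centring at matched hours and the array at hour 42 left out were chosen after the data had been seen. The study methods' single-factor test over hours called, after Benjamini-Hochberg adjustment, 603 probe sets in WC, 2 in controls, 1 in LD and 0 in both DD and CC, and no member. Scores hold no signal over background, so a member near the floor cannot be told from one that is not detected, and 3 or fewer series outside WC limit what could be called.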
